A study of Mus musculus with 4 samples.

Results

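Cytotoxic CD8 T cells of CT26 tumours, a mouse colon carcinoma model, were taken from single-cell RNA-seq of 2 tumour libraries by the UMIs they carried, where a UMI is 1 counted RNA molecule. A barcode was a member if it held at least 200 genes and at most 10% mitochondrial UMIs, at least 1 UMI of Cd3d, Cd3e and Cd3g together, at least 1 of Cd8a and Cd8b1, at least 1 of Gzmb and Prf1, no Cd4 or Cd79a, at most 1 Tyrobp and at most 2 Rhox5. The members were thus chosen by their UMIs of these 11 genes. The rule kept 160 cells of 20496 tumour barcodes that passed the gene and mitochondrial limits, 44 from the NanoCa tumour and 116 from the mock tumour; the whole series held 42163 barcodes. The mice were female and 4 to 8 weeks old, per the labels. NanoCa is, by the title of the series, a calcium-crystal lipid nanoparticle for immunotherapy through interferon beta. The mock tumour is tagged as untreated, although the treatment protocol field names NanoCa for it as for the other libraries, and the 2 groups are therefore taken from the sample names and tags. Tissue cells were stained for CD45 and sorted, without the gate being stated, and the labels give neither the strain nor how many mice went into a library. A tumour-draining lymph node (TDLN) library of each kind was used for comparison. With 1 library per group there was no replicate and no test was possible, and each interval below is a 95% interval that covers counting error alone.

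CD8 T cells recognise peptides on MHC class I through a T-cell receptor built from an alpha and a beta chain. Once activated they make granzymes, serine proteases stored in granules, and perforin, which opens the target membrane to them. In tumours, repeated antigen contact is known to raise the inhibitory receptor PD-1 (Pdcd1) and the costimulatory receptor 4-1BB (Tnfrsf9) on such cells, while naive and memory-like cells hold the transcription factors Tcf7, Lef1 and Klf2.

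Granzymes B, C and F come from 1 gene cluster on mouse chromosome 14, and their upstream sequences are shown because these 3 genes all had lower levels in NanoCa than in mock members. Each line gives the 250 bases before the transcript start from RefSeq, build GRCm38.p6, minus strand, read 5′ to 3′ on the strand of the gene. All 11 genes looked up had a RefSeq window. For 5 of 6 granzymes of the cluster the bases after the start were found in the GENCODE vM21 transcript used. Distances to the start therefore hold for the RefSeq start only. The windows shown are chr14:56262335-56262584 for Gzmb, chr14:56234658-56234907 for Gzmc and chr14:56211408-56211657 for Gzmf. Capitals mark TGTGGT, the core of the Runx motif, on either strand (ACCACA on the other), TGAGTCA, the AP-1 motif, and TGACGTCA, the cyclic AMP response element.
Gzmb: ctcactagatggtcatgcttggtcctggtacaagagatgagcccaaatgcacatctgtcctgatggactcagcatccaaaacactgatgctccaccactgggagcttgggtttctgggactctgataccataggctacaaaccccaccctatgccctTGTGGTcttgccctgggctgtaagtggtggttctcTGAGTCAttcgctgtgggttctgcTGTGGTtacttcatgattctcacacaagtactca
Gzmc: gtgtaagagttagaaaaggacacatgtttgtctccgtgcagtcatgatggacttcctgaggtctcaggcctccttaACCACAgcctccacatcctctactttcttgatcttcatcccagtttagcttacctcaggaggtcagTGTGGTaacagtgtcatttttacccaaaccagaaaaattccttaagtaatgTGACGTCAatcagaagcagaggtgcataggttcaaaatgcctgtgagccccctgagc
Gzmf: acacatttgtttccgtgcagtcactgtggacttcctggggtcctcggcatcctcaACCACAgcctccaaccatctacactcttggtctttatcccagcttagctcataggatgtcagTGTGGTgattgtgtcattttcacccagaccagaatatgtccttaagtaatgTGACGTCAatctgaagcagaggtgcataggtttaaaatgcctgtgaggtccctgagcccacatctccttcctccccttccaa
The Runx core stood at 2 places in each window, starting 93 and 34 bases before the start in Gzmb, 174 and 108 in Gzmc and 195 and 133 in Gzmf. The AP-1 motif was in the Gzmb window alone of the 3, 58 bases before the start, and the response element was in Gzmc and Gzmf, 57 and 82 bases before it. Of 32851 RefSeq windows of the same length, 14.05% held the Runx core, 4.46% the AP-1 motif and 1.55% the response element on either strand. In the same cluster the Runx core also stood at 2 places in the windows of Gzmd, Gzme and Gzmg, and Gzmg held the response element. Gzmd and Gzme did not pass 1.5-fold, so these motifs are not particular to the genes with lower levels. The Gzmc and Gzmf windows were 83.6% identical over 231 aligned bases, whereas blastn found no alignment of the Gzmb window with either. A motif match is a description of the letters and not a bound site.

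The 44 NanoCa members held 189206 UMIs in all and the 116 mock members 724155. A NanoCa member had between 1069 and 12564 UMIs with a median of 3100, and a mock member between 1839 and 18431 with a median of 5721. The mock cells were thus deeper, although the kept barcodes of both tumour libraries had medians of 12629 and 12246 UMIs. The share of mitochondrial UMIs had a median of 1.15% in NanoCa and 1.43% in mock members. The tumour libraries shared 136 barcode sequences, 1.45% of the smaller library, and no member barcode was in both member sets. Beyond the gate genes, a UMI of Trac, Trbc1 or Trbc2, the constant regions of the receptor, was read in 68.2% of NanoCa and 82.8% of mock members, and Nkg7, a granule membrane protein of killer cells, in 88.6% and 94.0%. The NK genes Ncr1 or Klrb1c were read in 0 of 44 NanoCa cells, which by the limit of 3 counts allows up to 6.82% of cells with a UMI and does not limit the cells that express them, and in 2 of 116 mock cells. Zbtb16, the factor of invariant NKT cells, was read in none of the members of either library, Trdc in 0 and 1 cells and Foxp3 in 0 and 1. B cells of the same libraries were barcodes with at least 2 UMIs of Cd79a and none of Cd3d, Cd3e or Cd3g. In these B cells the receptor constant regions were read in 0 of 504 and 5 of 328 cells and Nkg7 in 4 and 5. Some RNA of other cell types was also read: 1 NanoCa member held 143 UMIs of Col3a1, a fibroblast gene, and Lyz2, a macrophage gene, was read in 29.5% of NanoCa and 41.4% of mock members, whose median depths were 3100 and 5721 UMIs.

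Cytotoxic cells made up 20.5% of the NanoCa tumour's CD8 T cells (44 of 215, 15.3 to 26.5) and 42.0% of the mock tumour's (116 of 276, 36.1 to 48.1). The log2 ratio was -1.04 (-1.57 to -0.53). As a share of kept barcodes the members were 0.392% (0.285 to 0.526) in NanoCa and 1.25% (1.03 to 1.5) in mock, a log2 ratio of -1.67 (-2.21 to -1.16), and this share also moves with the CD45 sort. CD8 T cells as a whole were 29.0% and 29.4% of the CD3 barcodes, with a log2 ratio of -0.02 (-0.28 to 0.24). The gate asks for 1 UMI and deeper cells pass it more easily, so cells were also thinned to 2000 UMIs. Shallower cells were left out, and the gate was applied again to the thinned counts. At least 2000 UMIs were held by 37 of 44 NanoCa and 112 of 116 mock members. Of the granzyme-free CD8 T cells, 114 of 171 in NanoCa and 137 of 160 in mock held as many, so the cut was unequal. The share was then 18.3% (26 of 142) in NanoCa and 38.5% (90 of 234) in mock, a log2 ratio of -1.07 (-1.76 to -0.43). In the lymph node the same gate took 337 of 1856 NanoCa and 283 of 1673 mock CD8 T cells, 18.2% and 16.9%. Their makeup differed from that of the tumour members, since 305 and 247 of them held Prf1 without Gzmb and 83.4% of the NanoCa ones held a single UMI of the pair.

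The UMIs of Gzmb and Prf1 chose the members, so their levels are given as a description. A NanoCa member held between 1 and 56 UMIs of the pair with a median of 2, and a mock member between 1 and 128 with a median of 6. Of the NanoCa members, 19 held exactly 1 UMI, 13 held 2 to 4, 11 held 5 to 19 and 1 held 20 or more. Of the mock members, 23 held 1, 23 held 2 to 4, 49 held 5 to 19 and 21 held 20 or more. Both genes were read in 13 of 44 NanoCa members (29.5%) and 57 of 116 mock members (49.1%). Just outside the gate were 171 NanoCa and 160 mock CD8 T cells with no UMI of either gene, with median depths of 2217 and 2697 UMIs, against 2412 and 3450 in the members with 1 UMI. As a measure of free RNA, a UMI of the pair was read in 0.595% of 504 NanoCa B cells (median 2104.5 UMIs) and 1.83% of 328 mock B cells (median 2315.5 UMIs). It was read in 9 of 1933 and 19 of 1927 Rhox5-high, Ptprc-free carcinoma barcodes, whose median depths were 28817 and 31713 UMIs. The B cells were chosen without a Cd3 UMI and the carcinoma barcodes without Ptprc. Barcodes with free RNA of T cells were thus partly left out in advance, and these shares can be too low. The rule itself used the UMIs of the pair to set the 20.5% and 42.0% of CD8 T cells. Setting these beside the B-cell and carcinoma shares therefore does not show what part was free RNA. Whether the UMI of any single member was free RNA was not tested, including the 19 NanoCa and 23 mock members with 1 UMI.

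**Figure D1:**
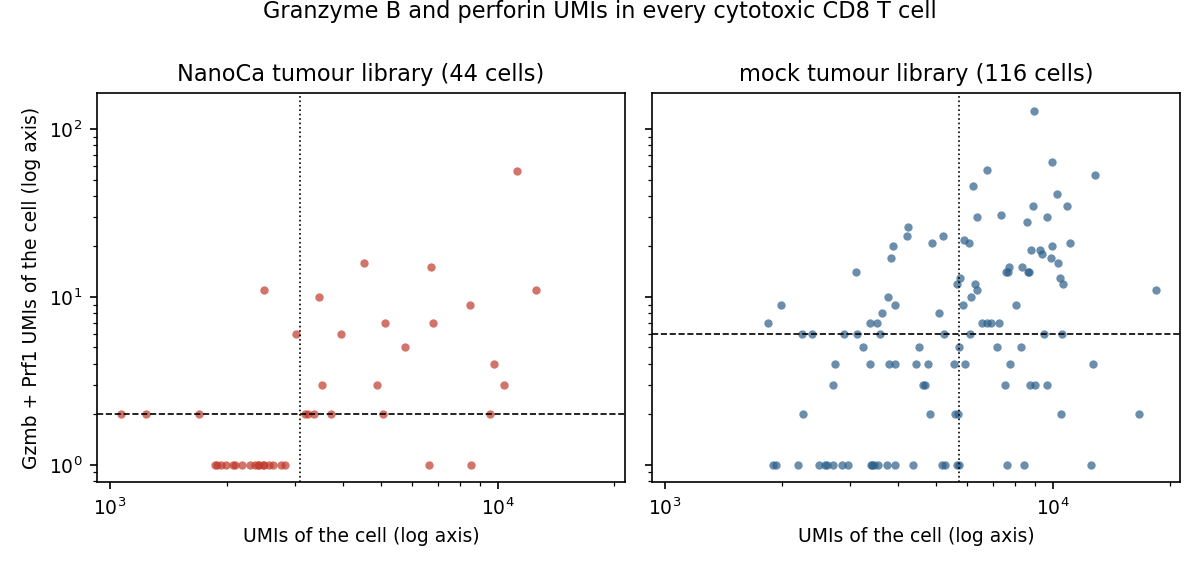
Each point is 1 cytotoxic CD8 T cell, with its total UMIs on a log axis and its Gzmb and Prf1 UMIs on a log axis, for the NanoCa (44 cells) and mock (116 cells) tumour libraries; dashed and dotted lines are medians. A row of NanoCa cells sits at 1 UMI of the pair and low depth, while 21 mock cells and 1 NanoCa cell reach 20 UMIs or more.

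Granzyme B was lower in NanoCa members, while the interval of the perforin ratio included 0. Gzmb was at 381 CPM (CPM, the members' summed UMIs scaled to a total of 1000000) in NanoCa, 72 UMIs in 27 cells, and at 1223 CPM in mock, 886 UMIs in 87 cells. The log2 ratio was -1.68 (-2.05 to -1.34), and under the alternatives run for it the ratio lay between -2.51 and -1.28. Every alternative still chose members by their Gzmb and Prf1 UMIs, so this range is a description and no independent check. Prf1 was at 724 CPM in NanoCa and 656 CPM in mock, a log2 ratio of 0.14 (-0.14 to 0.42), but 1 NanoCa cell held 55 of the 137 Prf1 UMIs, and without cells holding Mki67 or Top2a the log2 ratio was 0.62. The T-cell genes of the gate differed by less than 1.5-fold. Cd3e was at 1231 and 1359 CPM, Cd8a at 634 and 710, and Cd8b1 at 703 and 573.

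Other granule genes were also lower in NanoCa members. A gene was counted as higher or lower if it had at least 50 UMIs over both libraries, differed at least 1.5-fold in CPM and had a counting interval that excluded a ratio of 1. Over all 2626 genes tested in the members, 152 were higher in NanoCa, 5.79%, and 101 lower, 3.85%, together 9.63%, with a median log2 ratio of -0.04. The split depends on the scaling: with TMM factors 91 were higher and 230 lower, with median-of-ratios factors 93 and 216, and without the richest cell of each gene 62 and 151. Of 16 granule genes tested besides the gate genes, 5 were lower and none higher, with a median log2 ratio of -0.30. Gzmf, a granzyme of strongly activated killer cells, had 3 UMIs in 1 NanoCa cell and 227 UMIs in 9 mock cells, a log2 ratio of -4.31 (-6.59 to -2.74). Gzmc, its neighbour in the cluster, had 3 UMIs in 2 NanoCa cells and 52 in 18 mock cells, a log2 ratio of -2.18 (-4.50 to -0.55). Gzma, granzyme A, had 4 UMIs in 3 cells and 63 in 11 cells, a log2 ratio of -2.04 (-3.96 to -0.61). Serpinb9b, a serpin of the family that inhibits granzyme B, had 12 UMIs in 3 cells and 126 in 21 cells, a log2 ratio of -1.46 (-2.45 to -0.60). Few cells carried these genes, so their ratios rest on a small number of mock cells, and without the 9 Gzmf cells the median of the list was -0.08. Nkg7 was at 1749 CPM in NanoCa and 2214 CPM in mock, a log2 ratio of -0.34. Srgn, the proteoglycan core of the granule, was at 888 and 1045 CPM, a log2 ratio of -0.24. Neither passed 1.5-fold. In NK cells of the same tumours the log2 ratio was -2.42 for Gzmf, -0.47 for Gzma and -0.50 for Serpinb9b, but 0.77 for Gzmc. The lymph node members had -1.72 for Gzma and, on 1 and 23 UMIs, -4.62 for Serpinb9b. Gzmf had 0 and 7 UMIs there and Gzmc 0 and 12. The differences between classes were not tested.

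The granzymes of the cluster overlapped in cells. All 9 mock cells with Gzmf also held Gzmb, and these cells carried 275 of the 886 Gzmb UMIs of the mock members, 103 of 143 Gzmd UMIs and 96 of 187 Gzme UMIs. The single NanoCa cell with Gzmf held 26 of the library's 28 Gzmd UMIs and 24 of its 36 Gzme UMIs. Gzmd was at 148 CPM in NanoCa and 197 in mock and Gzme at 190 and 258, and neither ratio passed 1.5-fold. Gzmg was at 0 UMIs in both. Gzmd and Gzme transcripts are 93.5% identical over 928 aligned bases and Gzmd and Gzmf 86.1% over 931 (GENCODE vM21), so reads could be split between them and the level of any 1 of these genes is uncertain. Gzmk, a granzyme of memory-like cells, was at 47.6 CPM in NanoCa and 44.2 CPM in mock.

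Receptors and transcription factors of tumour effector cells are given by list, against 9.63% past the threshold over all genes. Among inhibitory receptors and exhaustion genes 1 of 14 tested was lower, none was higher, and the median log2 ratio was -0.25. That gene was Entpd1 (CD39, an ectoenzyme of chronically stimulated T cells), at 47.6 CPM in NanoCa and 112 CPM in mock, a log2 ratio of -1.23 (-2.41 to -0.24), and it lost the call without the cells holding Lyz2 (-0.89). Pdcd1 was at 455 and 550 CPM, a log2 ratio of -0.27 (-0.63 to 0.07), and was read in 54.5% of NanoCa and 77.6% of mock members, or 43.2% and 55.4% after thinning. Tnfrsf9 was at 861 and 958 CPM, a log2 ratio of -0.15 (-0.41 to 0.09). Of 11 costimulatory genes 1 was lower, the adhesion molecule Cd48, and the median was -0.20. Of 21 transcription factors 1 was lower, Id2, a factor of effector differentiation, at 328 CPM in NanoCa and 573 CPM in mock, a log2 ratio of -0.81 (-1.22 to -0.42). Of 19 residency and migration genes 1 was lower, Cxcr6, a chemokine receptor of tumour-resident CD8 T cells, at 227 and 416 CPM, a log2 ratio of -0.87 (-1.37 to -0.41). It was read in 45.5% of NanoCa and 64.7% of mock members. Of 8 NK-type receptor genes 2 were lower, Klrk1 (the activating receptor NKG2D) with a log2 ratio of -0.66 (-1.28 to -0.08) and Fcer1g with -0.77 (-1.33 to -0.26). Naive and memory genes had 1 of 10 lower, Dapl1, and a median of -0.05; Tcf7 was read in 22.7% of NanoCa and 12.9% of mock members, or 18.9% and 8.93% after thinning.

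Among cytokines and chemokines 4 of 11 were lower, 1 was higher and the median log2 ratio was -0.31. Over all genes 3.85% were lower and 5.79% higher. Xcl1, the chemokine that draws cross-presenting dendritic cells, was at 106 CPM in NanoCa and 214 CPM in mock, a log2 ratio of -1.02 (-1.77 to -0.34), with 60.0% of the NanoCa UMIs in 1 cell. Ccl3, an inflammatory chemokine, was at 100 and 211 CPM, a log2 ratio of -1.07 (-1.84 to -0.38). Spp1 (osteopontin) was at 788 and 1288 CPM, a log2 ratio of -0.71 (-0.97 to -0.46). The gene that was higher, the growth factor Areg, had 76.7% of its 30 NanoCa UMIs in 1 cell. Osteopontin is also made by tumour macrophages, and the 8 macrophage and monocyte markers, all with a UMI in both libraries, summed to 455 CPM in NanoCa and 489 CPM in mock members. Of that sum Fcer1g, which NK cells also express, gave 185 CPM in NanoCa and 316 CPM in mock, whereas Lyz2 was at 116 and 85.6 CPM, C1qa at 58.1 and 26.2 and C1qb at 63.4 and 30.4. Lyz2 was read in 49.2% and 45.4% of the B cells of the same libraries, and the part of such RNA in the Spp1 values was not tested.

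No interferon-stimulated gene passed the threshold upward in the NanoCa members. Of 16 tested 2 were lower, where 5.79% of all genes were higher and 3.85% lower, and the median log2 ratio was -0.38. The lower ones were Irf7, the master factor of the type I interferon response, at 47.6 CPM in NanoCa and 120 CPM in mock, a log2 ratio of -1.34 (-2.51 to -0.35), and Zbp1, a nucleic acid sensor, with -0.92 (-1.81 to -0.14). Both lost the call with stricter Cd3 and Cd8 gates, at -0.93 and -0.67. Ifi27l2a was at 935 and 1084 CPM and Ly6e at 872 and 1051 CPM. Granzyme-free CD8 T cells of the same tumours had 2 of 16 interferon-stimulated genes higher and 1 lower in NanoCa, with a median of 0.07, where 5.3% of 2867 genes were higher and 5.02% lower, together 10.3%. NK cells had 4 of 32 higher and a median of 0.20, where 7.44% of 4448 genes were higher and 2.65% lower, together 10.1%. The CD8 T cells that passed the same gate in the lymph node had 15 of 35 higher, none lower and a median of 0.53, where 3.8% of 7131 genes were higher and 8.27% lower, together 12.1%. These values stand side by side, and the differences between classes and tissues were not tested. Interferon-gamma-induced genes had 1 of 17 higher, the feedback inhibitor Socs1, at 106 and 45.6 CPM with a log2 ratio of 1.21 (0.33 to 2.06), and a median of -0.24; without the Col3a1-rich cell it was 0.97 and no longer called. None of 12 MHC class I genes passed the threshold, and the median was -0.20.

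**Figure D2:**
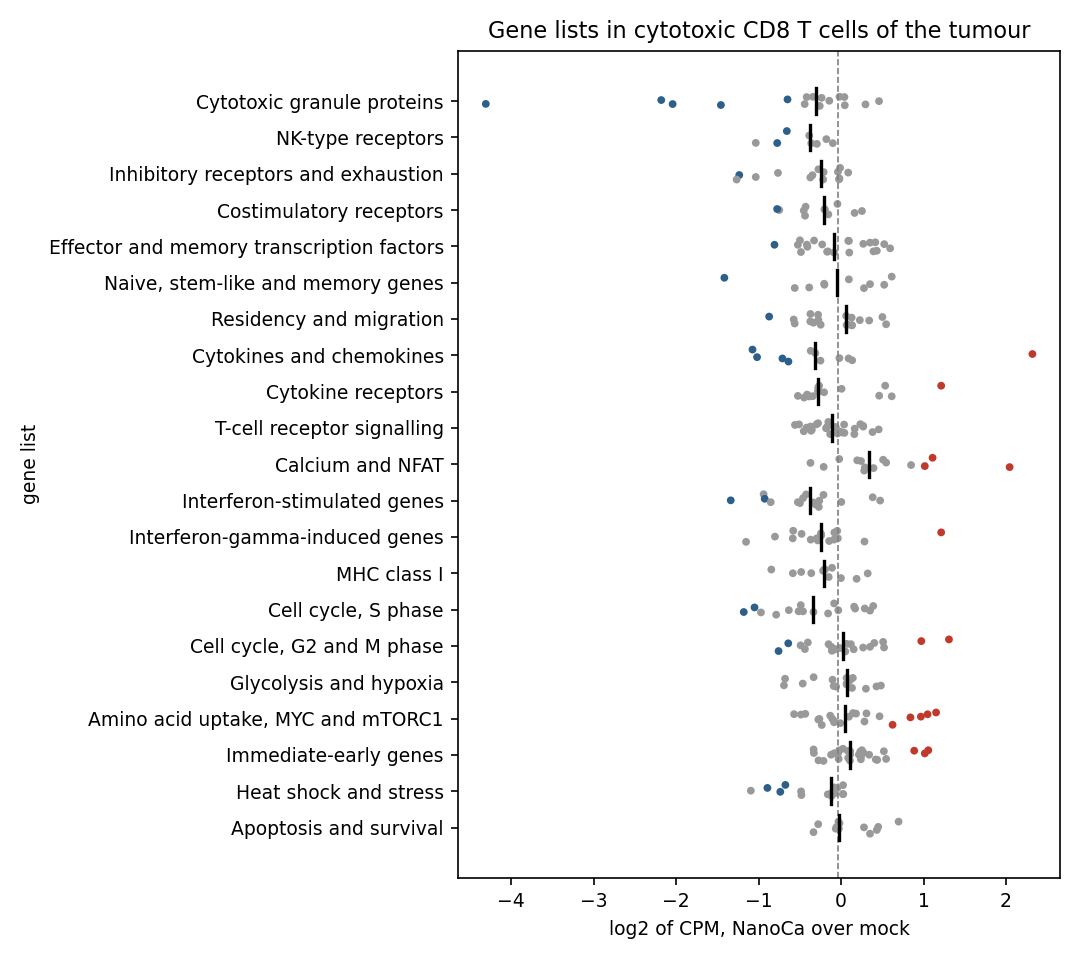
Each point is a gene with at least 50 UMIs, placed by the log2 ratio of its CPM in NanoCa over mock members, in rows by gene list; red and blue points were higher and lower in NanoCa, black bars are list medians and the dashed line is the median of all 2626 genes. The granule list reaches -4.31 with Gzmf, and the calcium and NFAT list has the highest median, 0.34.

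Calcium signalling genes were the list with the highest median, 0.34, with 3 of 14 higher in NanoCa and none lower. Over all genes tested in the members 5.79% were higher and 3.85% lower. Without cells holding Mki67 or Top2a the median was -0.04. T-cell receptor engagement opens the Orai1 channel in the plasma membrane, and the calcium that enters activates calcineurin and the NFAT factors. Orai1 was at 148 CPM in NanoCa, 28 UMIs in 15 cells, and at 35.9 CPM in mock, 26 UMIs in 21 cells, a log2 ratio of 2.04 (1.22 to 2.87). Its ratio was also above 1 in the granzyme-free CD8 T cells, with a log2 value of 1.22 (0.43 to 2.05), and in the NK cells, 2.39 (1.62 to 3.23), but not in the lymph node cells, -0.58 (-0.79 to -0.37). Egr1, an immediate-early factor, was at 396 and 196 CPM, read in 34 of 44 and 82 of 116 cells, a log2 ratio of 1.02 (0.59 to 1.43). Ppp3ca, the catalytic subunit of calcineurin, had a log2 ratio of 1.11 (0.42 to 1.77), with 61.3% of its 31 NanoCa UMIs in 1 cell, and the ratio changed sign with stricter gates for granzyme (-0.37), for Cd3 and Cd8 (-0.27) and for Tyrobp and Rhox5 (-0.11). Of 29 immediate-early genes 3 were higher, Dusp5, Egr1 and Zfp36l2, with log2 ratios of 1.06, 1.02 and 0.89, and none lower. None of 28 T-cell receptor signalling genes passed the threshold, and their median was -0.11.

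Growth and stress genes are set against 5.79% of all genes higher and 3.85% lower. Of 22 genes of amino acid uptake, MYC and mTORC1, 5 were higher and none lower, with a median log2 ratio of 0.04; Eif4ebp1, the translation repressor that mTORC1 phosphorylates, was at 190 CPM in NanoCa and 85.6 CPM in mock with a log2 ratio of 1.15 (0.52 to 1.77), and Asns, asparagine synthetase, had 1.05 (0.19 to 1.87). Of 17 S phase genes 2 were lower, Hells and Mcm3, with log2 ratios of -1.18 and -1.05, and of 22 G2 and M phase genes 2 were higher, Cdc20 and Tpx2, and 2 lower, Top2a and Stmn1. A UMI of Mki67 or Top2a was read in 43.2% of NanoCa and 55.2% of mock members, and in 37.8% and 33.9% after thinning. No glycolysis gene of 16 and no apoptosis gene of 12 passed the threshold. Of 16 heat shock and stress genes 3 were lower, Hsph1, Hspa5 and Mt1, with log2 ratios of -0.89, -0.74 and -0.67. The cytokine receptor list also holds feedback inhibitors, and of its 15 genes Socs1, such an inhibitor, alone was higher. No receptor of that list passed the threshold.

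The genes farthest from equality fell into 2 kinds, those carried by 1 cell and those spread over many. Col3a1, Sparc and Col1a2, genes of connective tissue matrix, had log2 ratios of 5.41, 3.05 and 2.16, with 91.7%, 86.5% and 80.5% of their NanoCa UMIs in 1 cell of 9567 UMIs. That cell also held 36 UMIs of Col1a1 and 24 of Dcn, beside 5 of Cd3e, 2 of Cd8a and 2 of Gzmb. The 3 fibroblast markers, all with a UMI in both libraries, summed to 1173 CPM in NanoCa and 63.5 CPM in mock. Without that cell the log2 ratio of Col3a1 was 1.90 (0.70 to 3.10) on 13 UMIs and that of Col1a2 was -0.12 (-1.44 to 1.02). Il1rl1 (the interleukin-33 receptor) and Cacnb2 rested on another cell of 8535 UMIs, which held 92.1% and 93.1% of their NanoCa UMIs and 66.2% of those of Errfi1. Spread over 15 to 27 of the 44 cells were Arf5, a vesicle-coat GTPase, with a log2 ratio of 2.71 (2.11 to 3.33), Raly, an RNA-binding protein, with 2.30 (1.66 to 2.95), Taf10, a subunit of TFIID, with 2.29 (1.55 to 3.04), Macroh2a1, a histone variant, with 1.83 (1.26 to 2.40), and Orai1. In the granzyme-free CD8 T cells of the same libraries Arf5, Raly, Taf10 and Macroh2a1 had log2 ratios of 2.35, 1.46, 2.22 and 1.499, and in the lymph node members -0.97, -0.60, -0.85 and -1.07.

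Lower in NanoCa over many cells were Jtb, Pkp3 and Itm2c. Jtb, a transmembrane protein, was read in 2 of 44 NanoCa and 48 of 116 mock members, 2 and 66 UMIs, a log2 ratio of -3.11 (-6.18 to -1.20). Pkp3, a desmosomal plakophilin, was read in 4 and 43 cells, a log2 ratio of -1.97 (-3.89 to -0.54), and Itm2c in 4 and 44 cells, -1.90 (-3.82 to -0.46). In the granzyme-free CD8 T cells the same genes had log2 ratios of 0.37, 0.94 and 0.63. Cd52, a lymphocyte surface glycoprotein, was at 1538 CPM in NanoCa and 2439 CPM in mock, a log2 ratio of -0.67 (-0.85 to -0.49), and H3f3b, a replication-independent histone, at 1527 and 2421 CPM, -0.66 (-0.85 to -0.48). Both were read in 42 NanoCa and 115 mock cells. Cst3 (cystatin C), Cxcl1 and Ghr had log2 ratios of -0.99, -1.21 and -1.37, and 34.1%, 32.7% and 69.7% of their mock UMIs were in 1 cell each.

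**Figure D3:**
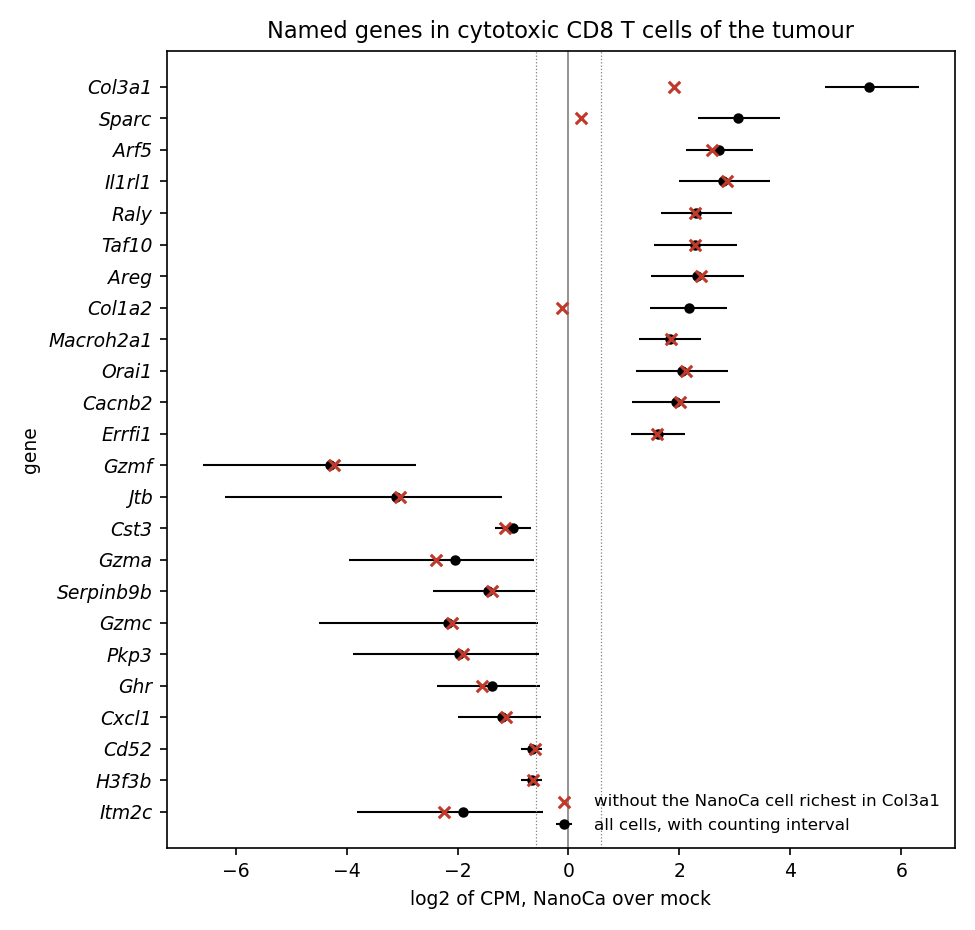
Named genes of the members by the log2 ratio of CPM in NanoCa over mock; black points are all cells with the 95% counting interval, red crosses leave out the NanoCa cell richest in Col3a1, and dotted lines mark 1.5-fold. The crosses leave the points for Col3a1, Sparc and Col1a2, whereas Arf5, Raly, Taf10 and Gzmf stay in place.

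Within each tumour library the members were set beside the CD8 T cells without granzyme B or perforin. This is the contrast the rule was built on, and members were deeper than granzyme-free cells in both libraries, so the values are a description. Of 1881 genes with 50 UMIs in both libraries, 139 were higher in members of both, 7.39%, 4 of them gate genes, and 84 lower in both, 4.47%, together 11.9%. Rgs16, a regulator of G-protein signalling, was at 344 CPM in NanoCa members and 55.0 CPM in NanoCa granzyme-free cells, and at 445 and 76.1 CPM in mock. Pdcd1 was at 455 and 52.9 CPM in NanoCa and 550 and 136 CPM in mock, log2 ratios of 3.10 and 2.02. Tnfrsf9 had log2 ratios of 2.48 and 1.97, the interleukin-2 receptor chain Il2rb 2.22 and 2.09, and Irf8 3.34 and 2.19. Pglyrp1, Serpinb6b, Bhlhe40, Id2 and the noncoding transcript AW112010 were the others at the top. At the other end, the naive-cell factors Lef1, Klf2, Id3 and Satb1 were lower in members of both libraries, Lef1 with log2 ratios of -2.23 in NanoCa and -2.31 in mock and Klf2 with -1.68 and -1.98. Rflnb, Rgs10, Cmah, Igfbp4, Dapl1 and Fos completed the lowest 10. By list, 7 of 9 inhibitory receptor genes, 6 of 8 granule genes, 7 of 12 glycolysis genes and 6 of 11 G2 and M phase genes were higher in members of both libraries, and 11 of 14 naive and memory genes were lower. None of 11 interferon-stimulated and none of 11 calcium genes was past 1.5-fold in both.

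**Figure D4:**
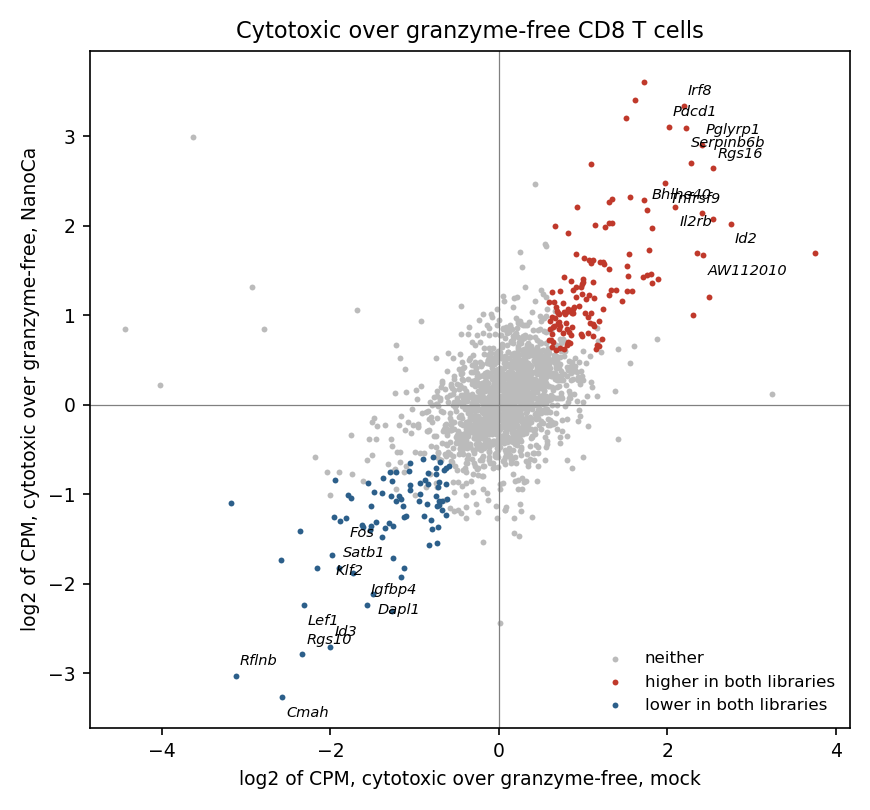
Each point is a gene tested in both tumour libraries, placed by the log2 ratio of CPM in cytotoxic over granzyme-free CD8 T cells in mock (horizontal) and NanoCa (vertical); gate genes are left out. Red genes (139 with the gate genes counted) were higher and blue genes (84) lower in both libraries, with Rgs16, Pdcd1 and Irf8 at the upper right and Rflnb, Lef1 and Cmah at the lower left.

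V segments of the T-cell receptor repeated among the members. Each cell was given an alpha and a beta V segment if 1 segment held most of its UMIs of that chain, which gave both for 23 NanoCa and 88 mock members. In NanoCa, 8 of 23 cells (34.8%, 16.4 to 57.3) held Trav21-dv12 with Trbv19 and 3 held Trav20 with Trbv14. Every NanoCa member with Trbv19 and a readable alpha segment held Trav21-dv12, 8 of 8. In mock, 12 of 88 (13.6%, 7.25 to 22.6) held Trav12-1 with Trbv14, 10 held Trav3-3 with Trbv19, 9 held Trav21-dv12 with Trbv13-1 and 8 held Trav12-3 with Trbv14. The Trav21-dv12 and Trbv19 pair was in 0 of the 88 mock members, and none of the mock pairs held by 3 or more cells was seen in a NanoCa member. The 23 NanoCa cells held 14 distinct pairs and the 88 mock cells 40, and the overlap over all pairs was not counted. With 23 cells, a pair held by few mock cells could go unread in NanoCa, so no difference in repertoire is drawn from this. Cells sharing a pair with another member of their library were 11 of 23 in NanoCa (47.8%, 26.8 to 69.4) and 58 of 88 in mock (65.9%, 55.0 to 75.7). In the granzyme-free CD8 T cells they were 8 of 55 (14.5%, 6.5 to 26.7) and 25 of 72 (34.7%, 23.9 to 46.9). This share grows with the number of cells read, so it compares only sets of like size; the mock members and mock granzyme-free cells are the nearest in size.

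**Figure D5:**
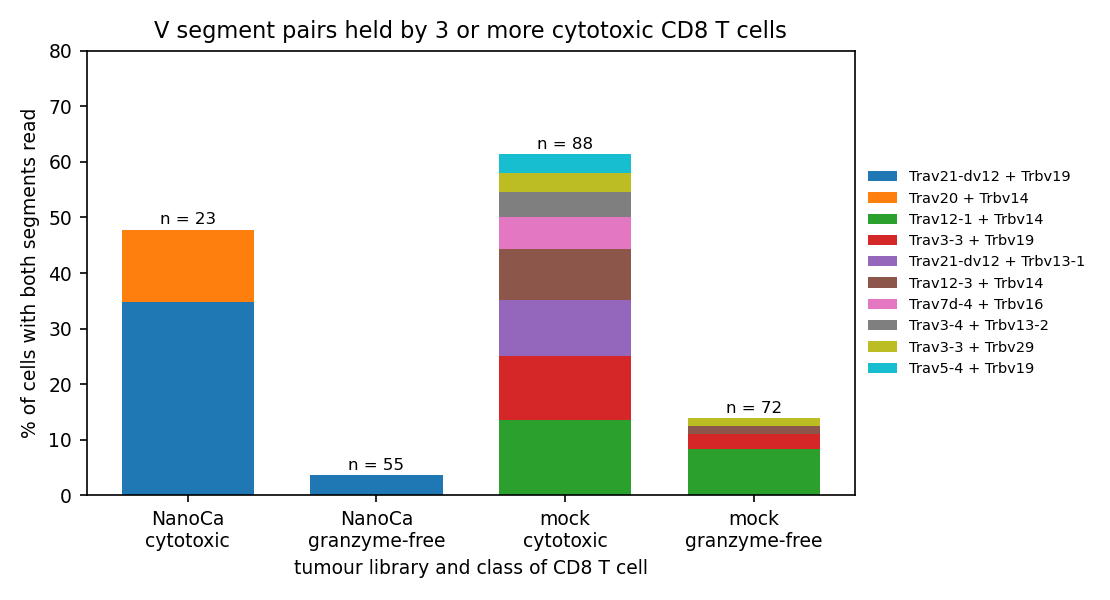
Stacked bars give the percent of cells with both an alpha and a beta V segment read that held each pair seen in 3 or more members of a tumour library, by library and class of CD8 T cell, with the number of cells above. Trav21-dv12 with Trbv19 fills 34.8% of the NanoCa cytotoxic cells, and 8 pairs share the mock bar.

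Both NanoCa pairs were looked for in the other cells. Trav20 with Trbv14 was in none of the other sets read, tumour or lymph node. Trav21-dv12 with Trbv19 was in 2 of 55 granzyme-free cells of the same tumour, where no pair was in more than 2, in 1 of 883 granzyme-free CD8 T cells of the NanoCa lymph node and in 1 of 826 of the mock lymph node. Of the mock pairs, Trav12-1 with Trbv14 was also in 6 of 72 granzyme-free cells of the mock tumour. Trav3-3 with Trbv19 was also read in the lymph node, in 6 of 190 NanoCa and 4 of 168 mock members and 10 of 883 and 9 of 826 granzyme-free cells, and Trav12-3 with Trbv14 was in 5 of 168 mock lymph node members. A shared pair of V segments is not a shared clone, since counts per gene do not hold the junctions. Duplicated alpha segments such as Trav7d-4 also have near-identical copies between which reads can be split. The members held 243 Trbv UMIs in NanoCa and 1066 in mock, against 27 and 132 of Trbc2 and 17 and 58 of Trbc1. The labels give a 3' protocol, which reads the constant-region end, and which end was read was not tested.

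In the mock tumour the members that shared a pair held more PD-1 RNA than the members with a pair of their own, a comparison chosen after the values were seen and given as a description. Pdcd1 was at 728 CPM in the 58 sharing cells and 317 CPM in the 30 others, a log2 ratio of 1.20 (0.79 to 1.63). Prf1, whose UMIs helped to choose the members, was at 892 and 356 CPM. Gzmb, also a gene of the gate, was at 1432 and 1101 CPM and Ifng at 422 and 228 CPM. Effector genes were not all on the same side, since Ccl5 was at 1047 and 1363 CPM, a log2 ratio of -0.38 (-0.61 to -0.15). Pdcd1 was read in 55 of the 58 and in 19 of the 30. Klf2 was at 147 and 434 CPM, a log2 ratio of -1.56 (-2.07 to -1.06). Gzmf was read in 8 of the 58 and in none of the 30. Median depth was 6332 UMIs in the sharing cells and 5513.5 in the others. In NanoCa the 11 sharing and 12 other cells had Prf1 at 1495 and 135 CPM, with 55 of the 93 UMIs of the sharing cells in 1 cell, and Pdcd1 at 322 and 444 CPM, a log2 ratio of -0.47 (-1.41 to 0.46). Klf2 was at 177 and 541 CPM there, -1.61 (-2.77 to -0.56), the same side as in mock. In these NanoCa cells Ifng was at 354 and 135 CPM, but Ccl5 was at 273 and 2935 CPM, -3.42 (-4.24 to -2.70). Gzmb was at 273 and 444 CPM there, -0.70 (-1.70 to 0.27).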

How the data were processed

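Single cells of tumour and lymph node were profiled with the 10x Genomics 3' v2 protocol, per the labels. The deposited values are raw UMI counts for 31253 genes per barcode, which the authors made with Cell Ranger 7.1.0, per the file headers; their genome build is not stated in the labels or headers. Members followed the gate given in the report. Their counts were summed per library and expressed as CPM; levels carry exact Poisson, shares exact Clopper-Pearson and ratios exact conditional binomial 95% intervals (scipy 1.17.1), which cover counting error only. The count call was tested on simulated library sums with Poisson counting error only. The simulation held no clumping of a gene's UMIs in single cells, so it says nothing of calls that rest on such cells. Doublets were marked with Scrublet (scanpy 1.11.5) at 0.8% per 1000 barcodes, 8.97% of NanoCa and 7.42% of mock tumour barcodes, and removed only as an alternative. The TMM alternative used edgeR 4.0.16; granzyme sequences were aligned with blastn 2.17.0. Named genes were the 12 highest and 12 lowest by the interval bound nearest 0 (10 and 10 for members over granzyme-free cells), with 50 UMIs and 50 CPM, without gate, mitochondrial, ribosomal, receptor-variable and sex-linked genes, plus up to 4 called genes and the 2 of highest mock level from each of 21 lists. Members and lists were chosen with earlier results of these data known. Depth limits precision most in the 44 NanoCa cells.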

Additional observations from a re-analysis of the deposited data

Results flagged for a closer look

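The share of cytotoxic cells among CD8 T cells went opposite ways in the 2 tissues, with a log2 ratio of NanoCa over mock of -1.04 in the tumour and 0.10 in the lymph node. The difference between the tissues was not tested. The lymph node ratio had an interval that included 0 (-0.13 to 0.34), and after thinning to 2000 UMIs it was -0.12.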

How the results depend on the processing

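No paired analysis was possible because each group held 1 library. The log2 ratio of the cytotoxic share kept its direction and stayed past 1.5-fold under all 9 alternatives, between -1.53 and -0.86. All 9 still set the share by Gzmb and Prf1 UMIs in the same 2 tumour libraries. This range is therefore a description and no independent check. The count of genes past 1.5-fold between NanoCa and mock members, 253, became 475 with a minimum of 20 UMIs, 673 with no minimum, 133 without cells holding Tyrobp or Rhox5, 128 without Mki67 or Top2a cells, 65 with cells thinned to 2000 UMIs and 402 with free RNA subtracted. The share of free RNA behind that subtraction came from 2 keratin UMIs per library, 19.7% (2.39 to 71.2) and 10.1% (1.22 to 36.4). The count for members over granzyme-free cells, 223, became 345, 389, 62 and 62 with a minimum of 20 UMIs, no minimum, no Mki67 or Top2a cells and thinning. By construction more genes entered with the lower minimums, and fewer cells or UMIs entered with the stricter gate, without Mki67 or Top2a cells and with thinning. Scaling moved the split: 152 higher and 101 lower with CPM, 91 and 230 with TMM factors, 93 and 216 with median-of-ratios factors, where the median of all genes was -0.20 and -0.19 in place of -0.04. With the richest cell of each gene left out the split was 62 and 151. Values changed sign for Il1rl1 (-1.87, -0.75, -1.03 and -0.34), Cacnb2 (-1.59, -1.75, -2.26 and -0.92) and Ppp3ca (-0.37, -0.27 and -0.11) under the stricter gates for granzyme, for Cd3 and Cd8 and for Tyrobp and Rhox5 and, for the first 2 genes, without the richest cell; for Errfi1 (-0.12) under the Cd3 and Cd8 gate; and for Col1a2 under the Tyrobp and Rhox5 gate (-0.85) and without the Col3a1-rich cell (-0.12). Beyond these changes in what entered, the cause was not tested. The median of the calcium list ranged from -0.04 to 0.47 and that of the interferon-stimulated list from -0.59 to -0.28. Leaving out the Col3a1-rich cell, the Gzmf cells or the cells with Lyz2 was added after seeing the data; the count was then 239, 240 and 169. The 44 NanoCa cells limit what can be seen of genes under about 50 UMIs.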
